A study of Mus musculus with 29 samples.

Results

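Fibroblasts freshly isolated from the hearts of aged mice were compared with those of young mice before any culture. The comparison rests on 6 of the 29 RNA-seq libraries in the series, those titled fresh: 3 of aged cells (fresh ACF, aged cardiac fibroblasts) and 3 of young cells (fresh YCF). They are primary cells of cardiac tissue, and no strain, genotype, sex, age in months or treatment is used here because the labels give none. The labels call each library a biological replicate without tying it to an animal, so each p-value rests on how far libraries of 1 group differ. The other 23 libraries hold young and aged cells after 48 h on substrates that join heart matrix with a hydrogel, and they serve only as a second setting for the age difference. The young libraries are named A1 to A3 and the aged ones A4 to A6, called libraries 1 to 3 of each age here, so a preparation shared by one age cannot be told apart from age.

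Cardiac fibroblasts lay down and remodel the extracellular matrix of the heart. They make the fibrillar collagens, elastic fibres and small proteoglycans that carry load, and also the metalloproteinases that cut them. They respond to injury through growth factor receptors, ERK signalling and the AP-1 and NF-kB transcription factors, and they can divide and send out chemokines that draw in white blood cells. Cells under oxidative stress use the factor NRF2 to raise glutathione synthesis and iron storage.

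The 6 fresh libraries held 1987732 to 3275089 counts each, so a gene at 10 CPM (counts scaled to 1000000 per library) rested on 20 to 33 counts. Mitochondrial transcripts took 0.473% to 0.648% of counts in every fresh library. Fibroblast markers were present in both groups: their summed level was 9176 to 9526 CPM in young and 9798 to 10120 CPM in aged cells. Of the 10 fibroblast markers, 3 were higher in aged cells and 5 lower, with Col1a1 and Col1a2 among the lower. Summed macrophage markers were 236 to 242 CPM in young and 399 to 459 CPM in aged cells, with 6 of 11 tested markers higher and 0 lower. Class II antigen presentation genes summed to 17.3 to 21.8 CPM in young and 69.1 to 76.2 CPM in aged cells. Endothelial markers summed to 194 to 210.3 CPM in young and 247 to 258 CPM in aged cells. Of 12 tested, 2 were higher (Cdh5 and Esam, 16.7% against 15.0% of all genes tested) and 0 lower. Pericyte and smooth muscle markers summed to 99.8 to 104.8 CPM in young and 44.2 to 57.0 CPM in aged cells. Of 4 tested, Steap4 and Notch3 were lower, Ndufa4l2 was higher and Rgs5 did not pass the test. Markers of T, NK and B cells, erythroid cells and adipocytes stayed at or under 4.82 CPM in sum in each library. Neutrophil markers summed to 4.40 to 8.20 CPM in young and 20.8 to 23.7 CPM in aged cells, and both that were tested, S100a8 (3.93 ± 0.53) and Camp (1.63 ± 0.36), were higher, while S100a9, Ly6g, Retnlg and Elane had 0 counts in all 6 libraries. Xist lay between 48.1 and 72.8 CPM in all 6 libraries, and Ddx3y, Uty, Kdm5d and Eif2s3y had 0 counts in each.

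Of 11786 genes tested, 1771 (15.0%) were higher and 1979 (16.8%) lower in aged cells at an adjusted p under 0.05 (edgeR's quasi-likelihood test, Benjamini-Hochberg). A change over 2-fold was seen for 1166 genes (9.89%), of which 494 (4.19% of all tested) went upward and 672 (5.70%) downward. The median log2 fold change of all genes tested was -0.0165. Groups that do not overlap were common. Every aged library lay above every young one for 2521 genes tested (21.4%) and below for 2741 (23.3%). Along the first principal component, which held 63.1% of the variance, the young libraries lay between -35.9 and -33.5 and the aged ones between 34.5 and 35.3. Folds are log2 ratios of aged over young cells ± SE, n = 3 libraries per group, and genes are said to have risen or fallen where the adjusted p was under 0.05. In bulk samples fewer cells of a type and less RNA per cell cannot be told apart. The bar chart of 59 gene lists gives the share of each list that rose or fell.

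**Figure D1:**
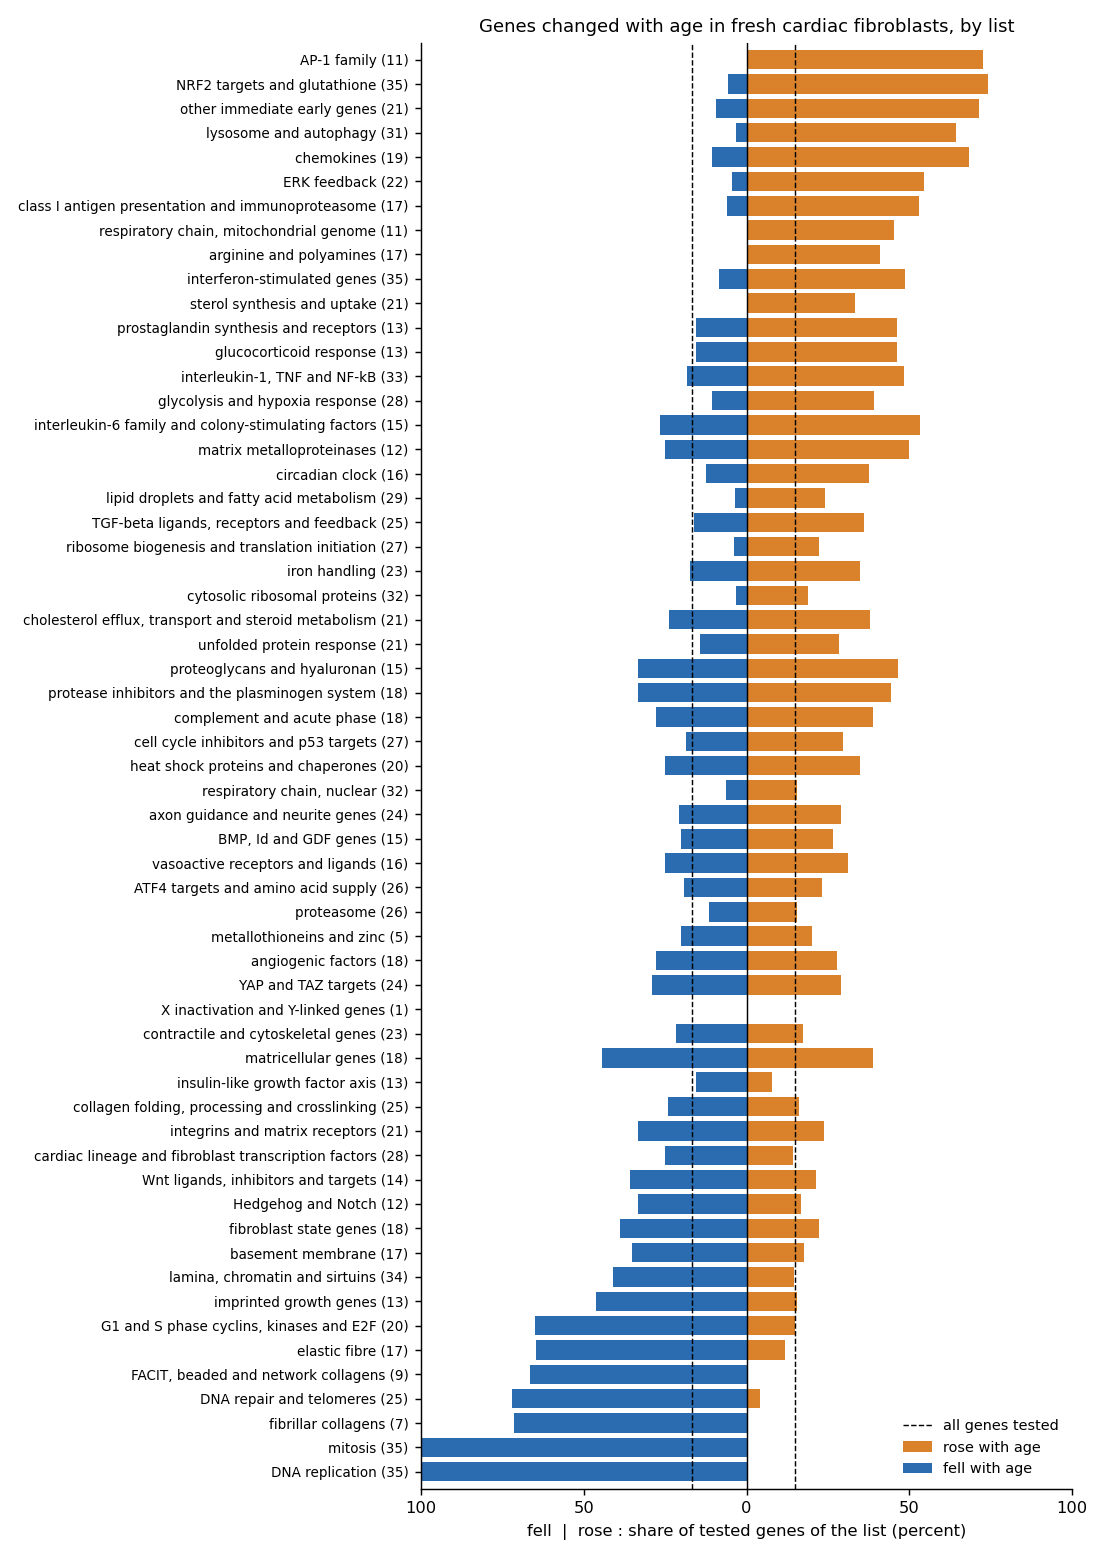
Share of the tested members of each of 59 gene lists that rose (right, orange) or fell (left, blue) in fresh aged over fresh young cells, in percent, with the number tested in brackets. Dashed lines mark the 15.0% and 16.8% of all 11786 genes that rose and fell; DNA replication and mitosis lie at 100% lower.

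Fibrillar matrix genes had much lower levels in fresh aged cells. Of 7 fibrillar collagen genes tested 0 rose and 5 fell, with a median of -1.56, also with Col11a1 set to the bound given below. Col1a2, a chain of type I collagen, measured 769.5, 856 and 802 CPM in the young libraries and 178, 192 and 152 CPM in the aged ones. The groups did not overlap, and the log2 fold change was -2.22 ± 0.08 (adjusted p = 6.95e-11). Col3a1, the chain of type III collagen, measured 1237, 1400 and 1406 CPM in young and 458, 469.6 and 442 CPM in aged cells (-1.56 ± 0.06, adjusted p = 1.25e-10). Every aged library lay far below every young one for both chains. Col11a1, a minor chain that helps to nucleate fibrils, had 41 counts over the young libraries and 0 over the aged ones, which makes it at least 12.1-fold lower if 3 counts are taken as the limit for the aged group. Col5a2 did not pass the test (-0.15 ± 0.08, adjusted p = 0.16).

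The collagens that decorate fibrils or form beaded filaments followed in number: of 9 tested 0 rose and 6 fell, with a median of -0.78. Type VI collagen, which links cells to fibrils, fell in all 3 tested chains, with Col6a1 at -1.35 ± 0.13, Col6a2 at -0.73 ± 0.15 and Col6a3 at -1.19 ± 0.26. Col14a1, a fibril-associated collagen, changed by -2.47 ± 0.35. Basement membrane genes were split, with 3 of 17 higher and 6 lower. Col4a1, a chain of the common type IV network, measured 267, 286 and 272 CPM in young and 373, 368 and 381 CPM in aged cells and rose by 0.44 ± 0.06. Col4a3 and Col4a4, chains of the type IV network found in few tissues, changed by -1.44 ± 0.27 and -0.99 ± 0.29, the latter not past the test without young library 2 or aged library 1 or 2 (adjusted p = 0.0538 to 0.0987). The laminin chains Lamc1 (-0.67 ± 0.09) and Lama2 (-0.81 ± 0.17) and perlecan, Hspg2 (-0.82 ± 0.12), were also lower.

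Elastic fibre genes fell in 11 of 17 tested, and 2 rose, with a median of -0.68. Elastin, Eln (ENSMUSG00000029675, chromosome 5, 134731447 to 134776178, build mm39), the stretchable core of the fibre, measured 20.0, 18.2 and 24.1 CPM in young and 0.416, 0.415 and 2.37 CPM in aged cells. It had 168 counts over the young and 8 over the aged libraries, and its log2 fold change was -4.18 ± 0.43 (adjusted p = 4.5e-06). Fibrillin-1, Fbn1, the microfibril scaffold, changed by -1.29 ± 0.12 and Fbln1, a binding partner of elastin, by -1.66 ± 0.13. Emilin1 changed by -0.88 ± 0.07 and the elastin crosslinking enzyme Loxl1 by -0.68 ± 0.05. The 2 that rose were Mfap5, a microfibril protein, by 0.69 ± 0.09 and Fbln5, which guides elastin assembly, by 0.56 ± 0.19; Fbln5 did not pass without young library 2 or 3 or aged library 1 or 3 (adjusted p = 0.0795 to 0.168), which left 1. Genes of collagen folding, processing and crosslinking were near the background, with 4 of 25 higher and 6 lower, and 2 higher without aged library 2 or 3. Among them the collagen chaperone Serpinh1 changed by only -0.28 ± 0.04.

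Proteoglycan and hyaluronan genes divided. Of 15 tested 7 rose and 5 fell. Prelp, a leucine-rich proteoglycan that anchors collagen, measured 441, 389 and 456 CPM in young and 136, 141 and 135 CPM in aged cells (-1.64 ± 0.07), and its relatives Ogn and Omd changed by -1.89 ± 0.19 and -2.51 ± 0.43. Decorin, Dcn, which binds fibrils and TGF-beta, rose from 2795, 2601 and 2680 CPM to 3732, 3822 and 3735 CPM (0.48 ± 0.04). The hyaluronan synthase Has1 measured 21.0, 19 and 22.2 CPM in young and 116, 115 and 104 CPM in aged cells (2.43 ± 0.13). The hyaluronan receptor Cd44 rose by 0.86 ± 0.09. Every aged value lay above every young one for Dcn, Has1 and Cd44.

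Matricellular genes, whose products sit in the matrix and signal to cells, were also split, with 7 of 18 higher and 8 lower. Fibronectin, Fn1, measured 739, 745 and 829 CPM in young and 251, 301 and 248 CPM in aged cells (-1.53 ± 0.08). Tenascin C, Tnc, which is laid down in injured tissue, went the other way, from 1754, 1884 and 1877 CPM to 4613, 4778 and 4273 CPM (1.31 ± 0.05). Spon2 showed one of the largest falls among the genes named here: 248, 241 and 251 CPM in young against 15.4, 15.4 and 13.8 CPM in aged cells (-4.05 ± 0.10, adjusted p = 1.82e-12). Ccn5, an antagonist in the CCN family, fell by 3.66 ± 0.26, while its relatives Ccn1 and Ccn2 rose by 1.33 ± 0.04 and 1.34 ± 0.22. Thrombospondin-1, Thbs1, rose by 0.67 ± 0.05 and Thbs2 fell by 0.64 ± 0.10. Postn, which marks activated fibroblasts, was low in both groups, with 59 counts over the young and 9 over the aged libraries.

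**Figure D2:**
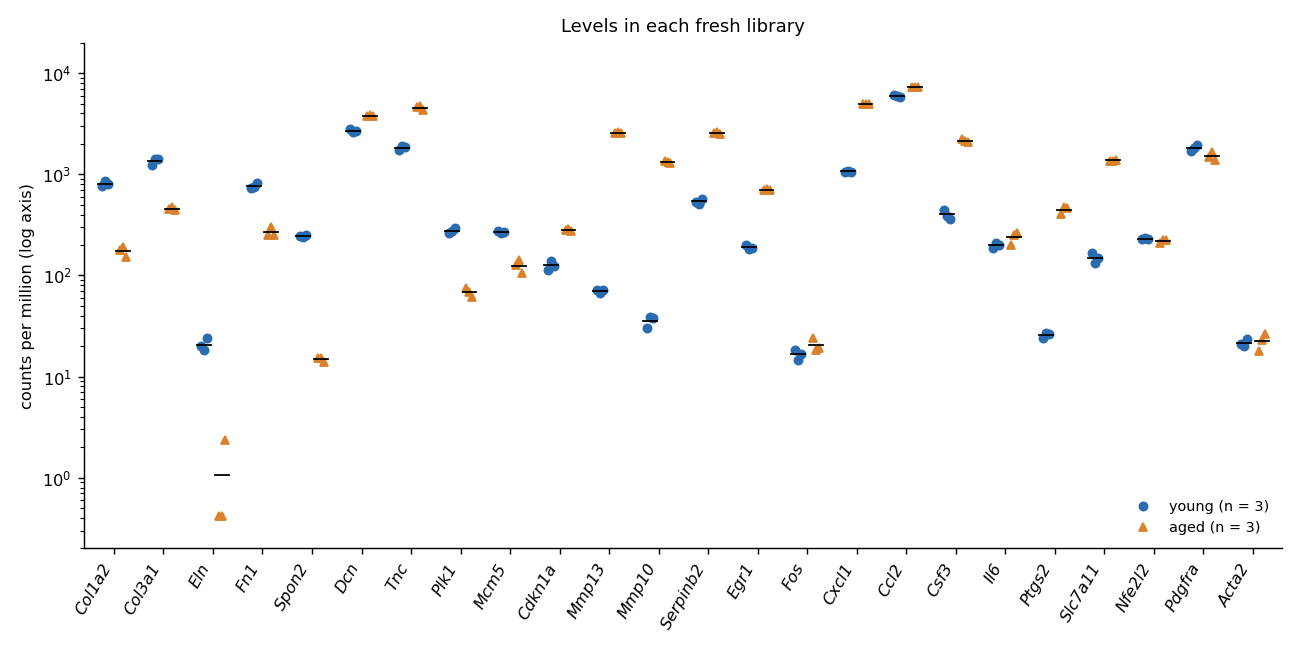
Level of 24 genes in each fresh library, in CPM on a log axis, with young libraries as blue circles, aged ones as orange triangles and a bar at each group's mean (n = 3). The 3 libraries of a group lie close together for most genes; Fos, Il6 and Acta2 are genes whose groups overlap or nearly so.

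Genes of cell division were lower in fresh aged cells throughout 2 lists. Of 35 DNA replication genes 35 fell (median -1.01), and of 35 mitosis genes 35 fell (median -1.82). Plk1, the kinase that drives mitotic entry, measured 264, 272 and 294 CPM in young and 75.7, 68.9 and 60.8 CPM in aged cells (-2.01 ± 0.09, adjusted p = 1.12e-09). Mki67, the gene of the Ki-67 antigen, measured 143, 138 and 155 CPM in young and 38.7, 28.7 and 35.5 CPM in aged cells. Cyclin B1, Ccnb1, measured 229.6, 220.3 and 231 CPM against 55.8, 64.8 and 68.7 CPM. For each of these 3 genes every young library lay well above every aged one. Folds in the mitosis list ran from Cdc25c, a phosphatase that activates Cdk1, at -2.62 ± 0.22 to Incenp, a subunit of the chromosomal passenger complex, at -1.09 ± 0.12.

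Replication genes fell less. The helicase subunit Mcm5 measured 277, 265 and 272 CPM in young and 127, 142 and 105 CPM in aged cells (-1.13 ± 0.10, adjusted p = 5.64e-07). Rrm2, which makes deoxynucleotides, measured 1064, 1190 and 1112 CPM against 627, 641 and 569 CPM (-0.87 ± 0.06). The sliding clamp Pcna had the smallest fall of the list, -0.51 ± 0.09. Genes that repair DNA or guard telomeres fell in 18 of 25 and rose in 1 (in 0 without young library 3 or aged library 3), with a median of -0.71. Brca1 (-1.42 ± 0.18), which acts in recombination, and Fanci (-2.08 ± 0.25), of the Fanconi anaemia pathway, were among them. Nuclear lamina and chromatin genes fell in 14 of 34 and rose in 5. Lmnb1, the lamin B1 gene, measured 170.4, 121 and 101 CPM in young and 39.5, 51.9 and 50.9 CPM in aged cells (-1.47 ± 0.17), so the young libraries spread widely but stayed above the aged ones. The maintenance DNA methylase Dnmt1 changed by -0.87 ± 0.09, while Lmna (0.29 ± 0.05) and the architectural factor Hmga2 (1.21 ± 0.09) rose.

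Not every cell cycle gene fell. Of 20 genes of G1 and S phase, 13 fell and 3 rose. The kinase Cdk1 measured 194, 185 and 194 CPM in young and 64.5, 67.7 and 76.2 CPM in aged cells (-1.46 ± 0.09). The growth factor-responsive cyclin Ccnd1 rose from 264, 275 and 312 CPM to 421, 432 and 406 CPM (0.57 ± 0.07), and Myc rose by 1.02 ± 0.07 and Ccnd2 by 0.47 ± 0.06. Among 27 cell cycle inhibitors and p53 targets 8 rose and 5 fell, and 3 fell when any 1 library other than young library 2 was left out. Cdkn1a, the p21 inhibitor, measured 114, 139 and 124 CPM in young and 282, 289.8 and 276 CPM in aged cells (1.16 ± 0.08, adjusted p = 7.63e-08). The p53 targets Mdm2 and Ccng1 rose by 1.16 ± 0.08 and 0.86 ± 0.09. The inhibitors Cdkn1b and Cdkn2d, which encode p27 and p19, changed by -1.70 ± 0.20 and -1.68 ± 0.14. Cdkn2a, the senescence marker gene of p16, was below the minimum for a test, with 7 counts over the young and 26 over the aged libraries.

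The promoters of 4 mitosis genes are shown because the members fell together and most share the CCAAT box, the binding motif of the factor NF-Y. Bases before the start site are from RefSeq (GRCm38.p6), on the gene's strand, with CCAAT in capitals.
Plk1 (plus strand, chr7:122159381-122159434): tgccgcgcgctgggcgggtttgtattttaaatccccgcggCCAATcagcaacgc
Ccnb1 (minus strand, chr13:100786509-100786625): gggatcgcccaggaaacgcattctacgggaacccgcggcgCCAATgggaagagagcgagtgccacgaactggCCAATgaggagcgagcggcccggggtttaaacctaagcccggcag
Ccnb2 (minus strand, chr9:70421555-70421681): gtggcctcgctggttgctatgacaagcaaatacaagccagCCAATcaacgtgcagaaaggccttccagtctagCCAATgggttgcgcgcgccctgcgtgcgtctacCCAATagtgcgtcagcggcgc
Cdc20 (minus strand, chr4:118437344-118437436): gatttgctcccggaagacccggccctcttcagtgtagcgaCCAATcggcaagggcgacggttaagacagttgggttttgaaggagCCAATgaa
Searched as CCAAT on both strands over the 250 bases before the start, the motif was present for 22 of the 29 mitosis genes with a promoter in the table (75.9%). It was present for 19 of 29 replication genes (65.5%) and for 40.7% of the tested genes with a promoter. The cell cycle homology region, searched as TTTGAA, was present for 11 of 29 mitosis genes (37.9%) and 12.6% of tested genes. A match describes the letters in this window and is not a measured binding site.

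Metalloproteinase genes were split in number, with 6 of 12 higher and 3 lower, but the largest changes were upward. Mmp13, a collagenase that cuts fibrillar collagen, measured 72.4, 66.8 and 71.9 CPM in young and 2553, 2618 and 2578 CPM in aged cells (5.20 ± 0.06, adjusted p = 1.39e-16). Mmp10, a stromelysin that also activates collagenases, measured 30.3, 38.7 and 37.6 CPM in young and 1343, 1310 and 1281 CPM in aged cells (5.20 ± 0.08). Mmp3, the other stromelysin, took more counts than any other gene in the fresh libraries, 1.48% of the total in each young library and 3.86% to 4.01% in the aged ones (1.55 ± 0.03). The elastase Mmp12 rose by 0.81 ± 0.08, from 106, 107 and 109 CPM to 194, 193 and 176 CPM, and the gelatinase Mmp2 by 0.44 ± 0.08. The membrane-type protease Mmp16 fell by 1.65 ± 0.27.

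The promoters of 4 of these genes are shown because they share the AP-1 motif, searched as TGANTCA on both strands and printed in capitals. They are from RefSeq (GRCm38.p6), on the plus strand.
Mmp13 (chr9:7272439-7272513): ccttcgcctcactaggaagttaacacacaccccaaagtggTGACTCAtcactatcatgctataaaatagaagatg
Mmp3 (chr9:7445736-7445821): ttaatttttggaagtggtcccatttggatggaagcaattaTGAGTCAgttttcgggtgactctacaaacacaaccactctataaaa
Mmp10 (chr9:7502239-7502325): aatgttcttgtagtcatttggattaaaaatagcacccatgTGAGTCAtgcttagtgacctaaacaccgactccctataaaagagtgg
Mmp12 (chr9:7347290-7347373): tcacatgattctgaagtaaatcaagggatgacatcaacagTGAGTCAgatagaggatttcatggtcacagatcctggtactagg
The motif was present for 4 of the 5 higher metalloproteinase genes with a promoter in the table (80%), for 5.59% of the tested genes with a promoter and for 11% of those that rose. All 4 lie in one gene cluster on chromosome 9, so they are not independent examples.

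The inhibitors and the plasminogen system, which activates metalloproteinases, showed 8 of 18 genes higher and 6 lower. Serpinb2, an inhibitor of urokinase, measured 538, 509 and 574 CPM in young and 2531, 2642 and 2515 CPM in aged cells (2.25 ± 0.05). The urokinase receptor Plaur rose from 124, 105 and 106 CPM to 383, 424 and 381 CPM (1.83 ± 0.08), and urokinase itself, Plau, by 2.46 ± 0.42. The metalloproteinase inhibitor Timp1 measured 311, 277 and 278 CPM in young and 419, 439 and 436 CPM in aged cells (0.58 ± 0.06). Its matrix-bound relative Timp3 went down, from 43.1, 42.8 and 50.2 CPM to 25.8, 22.8 and 18.9 CPM (-1.0 ± 0.17). The tissue activator Plat (-1.44 ± 0.13) and the complement inhibitor Serping1 (-0.96 ± 0.05) were also lower.

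Immediate early genes, switched on within minutes of a stimulus, were mostly higher. Of 11 AP-1 family genes 8 rose and 0 fell, with a median of 0.62. Without young library 2 there were 4 that rose, and without aged library 3 there were 5. Junb measured 1031, 1113 and 1012 CPM in young and 1704, 1649 and 1489 CPM in aged cells (0.62 ± 0.06), and Fosl1 rose by 1.24 ± 0.13. Fos itself, at 18.2, 14.6 and 16.9 CPM against 24.1, 18.3 and 19.3 CPM, did not pass the test (0.32 ± 0.20, adjusted p = 0.264). Among 21 other immediate early genes 15 rose and 2 fell, with a median of 1.33. Egr1 measured 199, 183 and 187 CPM in young and 695, 711 and 692 CPM in aged cells (1.88 ± 0.06), and the nuclear receptor Nr4a1 42.1, 36.9 and 34.2 CPM against 233, 233 and 193 CPM (2.53 ± 0.11). Srf, a factor that drives many of these genes, fell by 1.28 ± 0.30. In the ERK feedback list 12 of 22 rose and 1 fell. The EGF receptor ligand Ereg measured 55.3, 60.4 and 66.1 CPM in young and 263, 303 and 273 CPM in aged cells (2.21 ± 0.09), and Hbegf rose by 1.33 ± 0.16. The ERK phosphatase Dusp6 rose by 1.19 ± 0.09 and the inhibitor Spry4 by 1.20 ± 0.13, while the ligand Nrg1 fell by 1.57 ± 0.17.

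Chemokine genes rose in 13 of 19 and fell in 2 (in 1 without aged library 3), with a median of 0.93. Cxcl1 (ENSMUSG00000029380, chromosome 5, 91039100 to 91040975, build mm39), which draws in neutrophils, measured 1065, 1088 and 1058 CPM in young and 4973, 4937 and 4986 CPM in aged cells (2.21 ± 0.04, adjusted p = 2.52e-14). Its neighbours on chromosome 5 Cxcl2 and Cxcl3 rose by 2.31 ± 0.09 and 2.98 ± 0.10, and Cxcl5, already at 3476 to 3941 CPM in young cells, by 0.91 ± 0.05. Ccl2, which draws in monocytes, rose only from 6015, 5916 and 5797 CPM to 7313, 7339 and 7268 CPM (0.31 ± 0.03, adjusted p = 4.73e-06), without overlap of the groups. Cxcl12, a chemokine that retains progenitor cells, fell from 496, 518 and 552 CPM to 236, 218 and 223 CPM (-1.21 ± 0.06). Of the 11 tested macrophage markers given above 6 rose beside these genes, among them Cd14 by 1.86 ± 0.12 and Cd68 by 1.06 ± 0.11. Adgre1, Csf1r, C1qb, Fcer1g and Lyve1 did not pass the test, and the part of macrophages in the result was not tested.

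The promoters of 3 of these chemokine genes are shown because they share the NF-kB motif, searched by its consensus on both strands, with matches in capitals. They are from RefSeq (GRCm38.p6), on the plus strand.
Cxcl1 (chr5:90891116-90891223): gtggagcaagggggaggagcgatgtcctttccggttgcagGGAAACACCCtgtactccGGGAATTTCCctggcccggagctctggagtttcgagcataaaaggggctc
Cxcl2 (chr5:90903762-90903870): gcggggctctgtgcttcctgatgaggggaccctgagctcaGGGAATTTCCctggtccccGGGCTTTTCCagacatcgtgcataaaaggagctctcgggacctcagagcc
Cxcl3 (chr5:90785988-90786077): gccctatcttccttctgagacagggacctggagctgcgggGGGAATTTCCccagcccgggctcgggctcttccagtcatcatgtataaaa
The motif was present for 4 of the 7 higher chemokine genes with a promoter in the table (57.1%) and for 1.82% of the tested genes with a promoter. The 3 genes shown are near copies of each other in one cluster.

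In the interleukin-6 family and colony-stimulating factor list 8 of 15 rose and 4 fell. Csf3, the granulocyte colony-stimulating factor, measured 448, 391 and 362 CPM in young and 2224, 2141 and 2076 CPM in aged cells (2.42 ± 0.07). Csf1, the macrophage growth factor, rose from 5140, 5299 and 5394 CPM to 10006, 10236 and 9500 CPM (0.91 ± 0.04). Lif measured 41.4, 34.3 and 41.0 CPM in young and 229, 244 and 257 CPM in aged cells (2.65 ± 0.10). Il11, a profibrotic cytokine of the same family, measured 4.28, 1.46 and 1.93 CPM in young and 30.0, 35.3 and 32.4 CPM in aged cells (3.65 ± 0.30). Il6 was close to the threshold, at 185, 210.1 and 201 CPM in young and 202, 249 and 265 CPM in aged cells, with groups that overlapped (0.26 ± 0.10, adjusted p = 0.0479). It did not pass without young library 1 or 3 or aged library 2 or 3 (adjusted p = 0.08 to 0.197). The shared receptor Il6st (-0.80 ± 0.06) and its signal carrier Stat3 (-0.45 ± 0.06) fell.

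In the interleukin-1, TNF and NF-kB list 16 of 33 rose and 6 fell, and 2 fell without young library 2 or aged library 1. The adhesion molecule Vcam1 measured 1001, 958 and 1037 CPM in young and 2358, 2443 and 2413 CPM in aged cells (1.27 ± 0.04). Il1a, an alarm cytokine, rose by 1.92 ± 0.23, Il33 by 0.86 ± 0.10 and the feedback inhibitor Tnfaip3 by 1.86 ± 0.10. Nfkb1, which encodes the p50 subunit, fell by 0.40 ± 0.12, but did not pass without either of the same 2 libraries (adjusted p = 0.13 and 0.0805). Prostaglandin genes rose in 6 of 13 and fell in 2, Ptges3 and Slco2a1, but 0 fell in the fit of all 29 libraries. Those that rose include steps from membrane lipid to export, while Ptgs1 and Ptges2 did not pass the test. The phospholipase Pla2g4a rose by 0.87 ± 0.09. The cyclooxygenase Ptgs2 (ENSMUSG00000032487, chromosome 1, 149975782 to 149983979, build mm39) measured 23.9, 27.0 and 26.5 CPM in young and 404, 474 and 463 CPM in aged cells (4.11 ± 0.10, adjusted p = 8.13e-13). The terminal synthase Ptges rose from 58.1, 43.7 and 55.5 CPM to 189, 171 and 197 CPM (1.83 ± 0.11), the exporter Abcc4 by 1.76 ± 0.11 and the receptor Ptger4 by 1.19 ± 0.19.

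Interferon-stimulated genes rose in 17 of 35 and fell in 3, by small amounts (median 0.26). In the fit of all 29 libraries 10 rose and 1 fell. Bst2, a viral tether, measured 291, 285 and 279 CPM in young and 417, 394 and 431 CPM in aged cells (0.54 ± 0.06), and the regulator Irf1 fell by 1.39 ± 0.24. Class I antigen presentation genes rose in 9 of 17 and fell in 1, with B2m, the shared light chain, at 0.88 ± 0.06. The class I heavy chain genes are near copies and their single values are uncertain. Complement and acute phase genes were split, 7 of 18 higher and 5 lower, and the largest change was downward: Hp, haptoglobin, measured 96.3, 96.7 and 101 CPM in young and 11.7, 17.0 and 12.2 CPM in aged cells (-2.84 ± 0.15).

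Genes of the antioxidant response rose in 26 of 35 and fell in 2 (in 1 without aged library 3), with a median of 0.89. Slc7a11 (ENSMUSG00000027737, chromosome 3, 49846975 to 50398064, build mm39), the cystine importer that feeds glutathione synthesis, measured 168, 132 and 149 CPM in young and 1357, 1355 and 1397 CPM in aged cells (3.19 ± 0.07, adjusted p = 8.13e-13). Hmox1, the haem oxygenase that frees iron, measured 164, 168 and 197 CPM against 1339, 1269 and 1328 CPM (2.90 ± 0.07). The peroxidases Prdx1 and Prdx6 rose by 1.62 ± 0.04 and 2.05 ± 0.05, and the quinone reductase Nqo1 from 132, 125 and 122 CPM to 328, 339 and 321 CPM (1.38 ± 0.07). Both subunits of the enzyme that starts glutathione synthesis rose, Gclc by 1.61 ± 0.19 and Gclm by 1.40 ± 0.38. Gclm varied widely within a group, at 178, 48.6 and 42.5 CPM in young and 213, 179.8 and 321 CPM in aged cells, and did not pass without aged library 3 (adjusted p = 0.0723). Without young library 1 its log2 fold change was 2.37. The transcript of NRF2 itself, Nfe2l2, did not pass the test (228, 233 and 227 CPM against 208, 222 and 222 CPM, adjusted p = 0.404). Its inhibitor Keap1 changed by -0.47 ± 0.13, not past the test without young library 1 or aged library 3 (adjusted p = 0.0506 and 0.0684), and the secreted peroxidase Gpx3 by -1.18 ± 0.09. The antioxidant response element, searched as TGACNNNGC on both strands, was present for 5 of the 21 higher members with a promoter in the table (23.8%) and for 13.9% of tested genes with a promoter.

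Lysosome genes rose in most members of their list, and iron genes in fewer. Fth1, the ferritin heavy chain that stores iron, measured 1995, 1649 and 1665 CPM in young and 6833, 7094 and 7368 CPM in aged cells (2.00 ± 0.06), and the light chain Ftl1 rose by 0.77 ± 0.07. Of 23 iron genes 8 rose and 4 fell, with the reductase Steap4 at -2.33 ± 0.20. Lysosome and autophagy genes rose in 20 of 31 and fell in 1 (in 0 without young library 2 or 3 or aged library 1 or 2), with a median of 0.53. The autophagy receptor Sqstm1 measured 264, 251 and 259.5 CPM in young and 551, 600.5 and 581 CPM in aged cells (1.16 ± 0.06). The cathepsins Ctsb, Ctsd, Ctsk and Ctss rose by 0.67 ± 0.04, 0.72 ± 0.07, 1.32 ± 0.15 and 1.93 ± 0.15. Ctss and Cd68 are also abundant in macrophages, and 6 of 11 tested macrophage markers rose as given above.

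Arginine and polyamine genes rose in 7 of 17 and none fell. Arg2, the mitochondrial arginase, measured 2.50, 2.05 and 4.82 CPM in young and 72.0, 50.7 and 66.3 CPM in aged cells (4.41 ± 0.27, adjusted p = 1.91e-08). Odc1, which starts polyamine synthesis, rose by 1.23 ± 0.14, and Slc3a2, the partner chain of Slc7a11, by 1.61 ± 0.06. In cholesterol handling Star, which carries cholesterol into mitochondria, measured 9.98, 8.20 and 8.68 CPM in young and 142, 149 and 121 CPM in aged cells (3.94 ± 0.15). The efflux pump Abca1 fell from 41.0, 36.9 and 42.5 CPM to 18.3, 17.0 and 23.7 CPM (-1.02 ± 0.17). Sterol synthesis and uptake genes rose in 7 of 21 and none fell. The lipid droplet coat Plin2 rose by 1.14 ± 0.08 and Hilpda by 1.80 ± 0.15, in a list where 7 of 29 rose and 1 fell (0 without young library 3 or aged library 1 or 3, and 2 without young library 1).

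Signals between cells changed in both directions. In the TGF-beta list 9 of 25 rose and 4 fell. Inhba, which encodes activin A, measured 112, 107 and 112 CPM in young and 519, 470.1 and 499 CPM in aged cells (2.17 ± 0.07), while the ligands Tgfb2 and Tgfb3 both changed by -1.06, ± 0.24 and ± 0.23. Of BMP genes 4 of 15 rose and 3 fell. The antagonist Grem1 measured 14.3, 9.38 and 18.8 CPM in young and 55.3, 48.2 and 73.4 CPM in aged cells (2.11 ± 0.23). Of Wnt genes 3 of 14 rose and 5 fell. The secreted inhibitor Sfrp2 measured 35.3, 32.8 and 34.7 CPM in young and 7.49, 4.57 and 3.95 CPM in aged cells (-2.68 ± 0.24), and Sfrp1 and Dkk3 changed by -1.62 ± 0.11 and -2.08 ± 0.49.

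Among 13 genes of the insulin-like growth factor axis 1 rose (3 without young library 1) and 2 fell. The one that rose was Igfbp5, from 9.27, 9.96 and 8.68 CPM to 47.4, 55.2 and 56.5 CPM (2.49 ± 0.18), and the receptor Igf1r fell by 0.80 ± 0.09. Igf1 did not pass the test, at 9.27, 9.38 and 11.6 CPM against 13.7, 9.55 and 13.4 CPM (adjusted p = 0.427). Imprinted growth genes fell in 6 of 13 and rose in 2 (in 1 without young library 3 or aged library 1 or 2). Slc38a4 (ENSMUSG00000022464, chromosome 15, 96892701 to 96953838, build mm39), an imprinted amino acid carrier, measured 63.8, 63.9 and 67.5 CPM in young and 2.91, 4.15 and 2.76 CPM in aged cells (-4.29 ± 0.21, adjusted p = 1.87e-09). This was the largest fall among called genes with an established symbol, a mean of at least 10 CPM and groups that did not overlap. Peg3 measured 53.5, 41.3 and 41.5 CPM in young and 7.49, 7.06 and 4.74 CPM in aged cells (-2.82 ± 0.22). Peg10 and the noncoding RNA Meg3 changed by -2.41 ± 0.17 and -2.59 ± 0.43. Igf2 and H19 were below the minimum for a test, with 2 counts of Igf2 and 1 of H19 over the young and 1 and 0 over the aged libraries.

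Neurotrophic and guidance genes held the largest rise among called genes with an established symbol, a mean of at least 10 CPM and groups that did not overlap. Nefm, a neurofilament subunit, had 2 counts over the young and 195 over the aged libraries, at 31.6, 22.4 and 25.7 CPM in the aged ones, a ratio of 110 (95% exact counting interval 30.1 to 915). Unc5c, a netrin receptor, had 2 and 75 counts, a ratio of 42.3 (11.3 to 356). Bdnf and Sema3c rose by 1.55 ± 0.29 and 1.87 ± 0.08. In all 7 of 24 rose and 5 fell, with the adhesion molecule Ncam1 at -2.21 ± 0.24. Penk, the enkephalin precursor gene, measured 20.0, 17.6 and 19.8 CPM in young and 209.7, 219 and 233 CPM in aged cells (3.53 ± 0.11).

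Receptor lists and the list of YAP and TAZ genes followed no single direction. Of 16 vasoactive genes 5 rose (3 without aged library 1) and 4 fell. The endothelin receptor Ednrb measured 26.7, 29.9 and 30.4 CPM in young and 91.1, 82.6 and 86.1 CPM in aged cells (1.58 ± 0.12), and the angiotensin receptor Agtr1a changed by -2.84 ± 0.42. Of 21 integrins and matrix receptors 5 rose (3 without aged library 3) and 7 fell, with Itgb3 at 1.43 ± 0.09 and Itga2, a subunit of a collagen receptor, at 2.54 ± 0.24 upward and the collagen receptor Ddr1 at -1.61 ± 0.25. Genes of the YAP and TAZ list were even, 7 of 24 higher and 7 lower. The list holds pathway factors and regulators such as Yap1, Tead1 and Lats2 beside targets. Of these, Tead1 and Tead2 were among the lower, and Lats2 and Vgll3 among the higher. Tissue factor, F3, which starts coagulation, rose from 72.0, 85.5 and 76.7 CPM to 497, 556 and 541 CPM (2.76 ± 0.08), and Ankrd1 by 1.66 ± 0.05. Placental growth factor, Pgf, rose by 2.50 ± 0.32, and Vegfd and Pdgfrb changed by -2.31 ± 0.21 and -0.99 ± 0.09. The pericyte marker Notch3 had 48 counts over the young and 3 over the aged libraries, a ratio of 14.2 (4.57 to 71.1). Ndufa4l2, of the same marker list, rose.

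Genes that mark the fibroblast lineage changed in both directions. Pdgfra, the surface receptor used to identify these cells, measured 1715, 1805 and 1943 CPM in young and 1484, 1675 and 1395 CPM in aged cells (-0.26 ± 0.06, adjusted p = 0.00602), a call that was lost in the fit of all 29 libraries (adjusted p = 0.0511). Tcf21, the resident fibroblast factor, measured 41.0, 31.9 and 28.5 CPM against 11.7, 14.1 and 16.2 CPM (-1.27 ± 0.21). Wt1, a marker of epicardial origin, was below the minimum, with 17 counts over the young and 2 over the aged libraries. Of 28 lineage and fibroblast transcription factors 4 rose and 7 fell. Leaving out any 1 library but young library 1 left 1 or 2 that rose, and 4 fell without young library 2 or aged library 3. Of 18 fibroblast state genes 4 rose and 7 fell. Among markers of progenitor or adventitial fibroblasts, Ly6a and Cd34 rose and Pi16 and Dpp4 fell. Ly6a went from 40.3, 29.6 and 44.9 CPM to 77.4, 76.0 and 83.7 CPM (1.07 ± 0.15). Pi16 and Dpp4 changed by -1.23 ± 0.25 and -1.0 ± 0.16. Acta2, the smooth muscle actin of myofibroblasts, did not pass the test, at 21.0, 19.9 and 23.6 CPM in young and 17.9, 22.8 and 26.4 CPM in aged cells (adjusted p = 0.828). Of 23 contractile genes 4 rose and 5 fell.

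The clock list held 6 of 16 genes higher and 2 lower, but 2 higher without aged library 1 and 3 higher without young library 2. Nr1d1, a repressor in the clock loop, measured 26.0, 31.1 and 29.4 CPM in young and 50.4, 56.9 and 46.6 CPM in aged cells (0.83 ± 0.15), and Per3 and the output factor Hlf changed by -1.33 ± 0.22 and -2.13 ± 0.22. Per2 did not pass the test (-0.06 ± 0.34, adjusted p = 0.913), and Dbp was below the minimum, with 11 and 15 counts. The labels used here give no hour of isolation.

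Housekeeping lists had medians near 0. Of 32 cytosolic ribosomal protein genes 6 rose and 1 fell, of 26 proteasome genes 4 rose and 3 fell, and of 32 nuclear respiratory chain genes 5 rose and 2 fell, with medians of 0.10, -0.01 and 0.11. Of 27 ribosome biogenesis genes 6 rose and 1 fell, and of 21 genes of the unfolded protein response 6 rose and 3 fell. Against the background of 15.0% and 16.8%, the share that fell was smaller in the ribosomal protein, ribosome biogenesis and nuclear respiratory lists. The share that rose was 28.6% in the unfolded protein response list, 22.2% in ribosome biogenesis and 18.75% in ribosomal proteins. In the proteasome and nuclear respiratory lists it was 15.4% and 15.6%. With 1 library left out, the proteasome genes that fell numbered 1 without young library 2 or aged library 3, and the ribosome biogenesis genes that rose numbered 3 without aged library 2. The respiratory genes that rose numbered 8 without young library 1 and 3 without young library 2 or aged library 3. Those that fell numbered 0 without young library 2 or aged library 1 or 3 and 1 without young library 3. The ribosomal protein genes that fell numbered 2 without young library 1 or aged library 1 and 0 without the second library of either age. Genes of glycolysis and hypoxia rose in 11 of 28 and fell in 3, by small amounts (median 0.12), with the glucose carrier Slc2a1 at 0.92 ± 0.07. In the fit of all 29 libraries those that rose numbered 6. The strip plot of list members shows the spread within the lists.

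**Figure D3:**
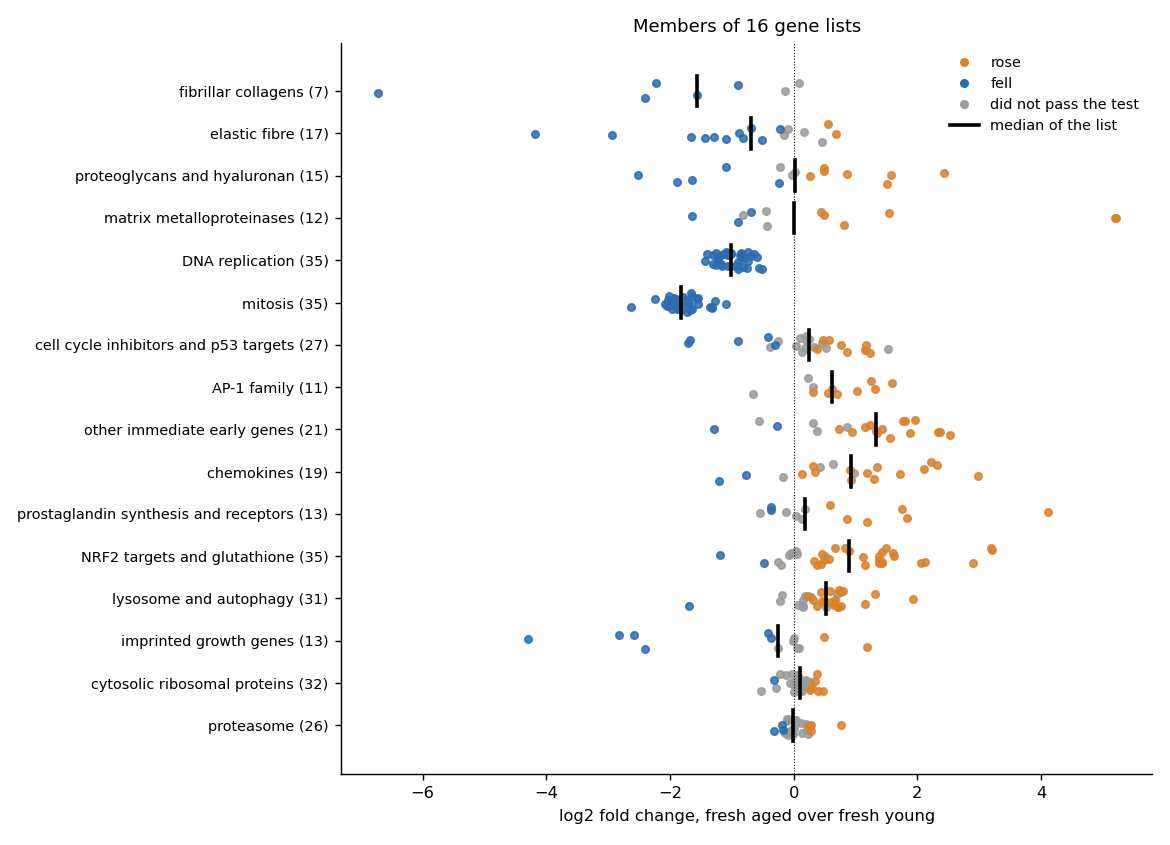
Log2 fold change of aged over young fresh cells for each tested member (point) of 16 gene lists, coloured orange where it rose, blue where it fell and grey where it did not pass the test, with a black bar at the list's median. Mitosis and replication members all lie below 0; the proteasome and ribosomal protein members cluster around 0. The point farthest left is Col11a1, whose fitted value rests on 0 counts in aged cells.

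Folds were ranked among called genes with an established symbol, a mean of at least 10 CPM and groups that did not overlap. The 12 largest rises were Nefm, Mmp10, Mmp13, Crct1, Arg2, Ptgs2, Star, Sprr2h, Adh7, Il11, Penk and Slc7a11. Crct1 and Sprr2h, genes known from the cornified layer of skin, measured 48.2 to 52.0 CPM and 49.9 to 56.5 CPM in aged cells and 1.45 to 2.14 CPM and 1.46 to 6.42 CPM in young cells. Adh7, which oxidises retinol, measured 2.14 to 3.38 CPM in young and 35.7 to 45.4 CPM in aged cells (3.73 ± 0.25). The 12 largest falls were Slc38a4, Eln, Spon2, Ccn5, Serpina3f, Tmem119, Clca3a1, Hp, Peg3, Afap1l2, Cpe and Bend4. Tmem119 measured 236, 233 and 227 CPM in young and 21.6, 23.7 and 25.3 CPM in aged cells (-3.30 ± 0.10). Cpe, a peptide-processing enzyme, rested partly on 1 library, at 117, 35.7 and 27.5 CPM in young and 7.07, 4.57 and 15.4 CPM in aged cells, and its log2 fold change of -2.73 became -1.82 without young library 1. Serpina3f shares sequence with near copies, so its value is uncertain.

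The age difference was then set beside that of cultured cells, to ask whether it was the same after 48 h on the substrates. In cultured cells, averaged over the 4 substrates, 974 of 13523 genes (7.20%) were higher in aged cells and 1125 (8.32%) lower. The difference between the 2 age differences, tested in one fit of 29 libraries, passed for 2786 genes (20.6%), with 1369 (10.1%) more positive in fresh cells and 1417 (10.5%) more negative. Of 11784 genes tested in both, 264 were higher with age in both settings and 271 lower in both, and 238 that were higher in fresh cells were lower in culture. Another 120 were lower in fresh and higher in cultured cells. The first 264 make up 14.9% of the genes higher in fresh cells and 30.7% of those higher in culture.

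Cell division genes differed most evenly. For all 35 mitosis genes and 32 of 35 replication genes the fall with age was larger in fresh cells, and in culture 2 mitosis genes and 1 replication gene rose and none fell. Plk1 averaged 75.1 CPM in young and 79.2 CPM in aged cultured cells (0.07 ± 0.07, adjusted p = 0.562). Mki67 (0.13 ± 0.08) and Mcm5 (-0.07 ± 0.07) did not pass the test in culture either. Of the 7 fibrillar collagen genes 5 also fell in culture and 1 rose, with a median of -0.26. Of the 9 fibril-associated, beaded and network collagens 2 fell and 3 rose in culture, with a median of 0.08, and Col6a1 did not pass the test there (0.08 ± 0.04, adjusted p = 0.172). Col1a1 averaged 12479 CPM in young and 10519 CPM in aged cultured cells (-0.26 ± 0.03) and had -2.40 ± 0.06 in fresh ones, at 1333, 1296 and 1454 CPM in young and 266, 262 and 243 CPM in aged cells. Eln fell in both (-2.18 ± 0.09 in culture).

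Immediate early genes were lower with age in culture, and chemokine genes were split there. Of the 11 AP-1 family genes 8 were lower with age in culture and none higher, and of the 21 other immediate early genes 18 were lower. Egr1 averaged 941 CPM in young and 143 CPM in aged cultured cells (-2.72 ± 0.09), against 1.88 ± 0.06 in fresh cells. Cxcl1 averaged 78.5 CPM and 27.5 CPM (-1.48 ± 0.08), against 2.21 ± 0.04. Of the 19 chemokine genes 5 were lower and 3 higher with age in culture, with a median of -0.08, and for 9 the difference between settings was more positive in fresh cells. Mmp13 was nearly absent in culture, at 1.46 CPM and 0.578 CPM, and its age difference there did not pass the test (-1.25 ± 0.55, adjusted p = 0.125). Antioxidant genes rose in 2 and fell in 5 of 35 in culture, and for 21 the difference was more positive in fresh cells. Hmox1 averaged 75.0 CPM and 68.0 CPM in culture (-0.13 ± 0.08, adjusted p = 0.346).

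For a number of named genes, not only those given here, the difference between settings did not pass the test. Slc38a4 averaged 12.9 CPM in young and 0.472 CPM in aged cultured cells (-4.75 ± 0.27), and its difference between settings did not pass the test (0.50 ± 0.41, adjusted p = 0.443). Ly6a changed by 0.97 ± 0.12 in culture, with a difference between settings of 0.13 ± 0.26 (adjusted p = 0.79), and Pdgfra by -0.27 ± 0.04 (0.05 ± 0.10, adjusted p = 0.793). Ednrb (1.27 ± 0.14) and Col4a3 (-1.09 ± 0.19) also moved the same way in culture. Their differences between settings did not pass either (adjusted p = 0.356 and 0.626). These differences have intervals wide enough that the settings are not shown to be alike. Arg2, Nefm, Penk and Sprr2h had at most 14 counts over the cultured libraries of either age, too few to compare. Slc38a4, Ednrb and Col4a3 were picked after their values were seen.

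**Figure D4:**
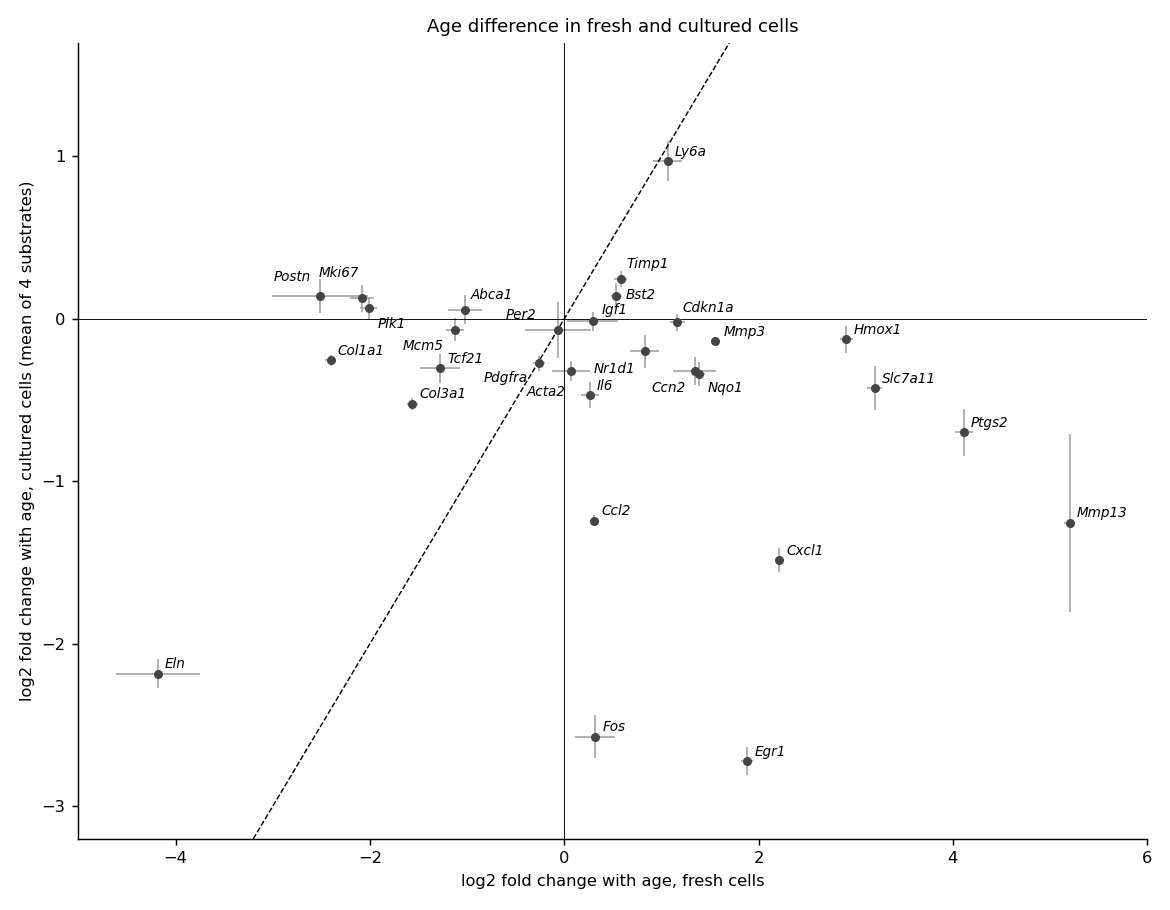
Log2 fold change of aged over young cells in fresh (horizontal) and cultured cells (vertical, mean over 4 substrates) for 30 genes with a test in both of a chosen group of 36, with bars of 1 SE. The dashed line marks equal values; Egr1, Cxcl1, Ptgs2 and Ccl2 lie below 0 in culture and above 0 in fresh cells, and Pdgfra and Ly6a lie near the line.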

How the data were processed

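RNA was taken from the cells in TRIZOL and made into libraries from 20 ng with a low-input NEBNext kit, per the labels' protocols. Alignment used STAR 2.7.8a and the build mm39 (per the submitters' processing notes). The deposited table gives the authors' whole-number counts for 55357 genes in 29 libraries. The name of the deposited table gives HTSeq as the counter, and no source used here gives its version, the annotation or the use of strand, so reads of overlapping genes may be shared. No library was left out. Counts of fresh replicates differed by 1.81 to 4.34 times the counting noise (mean chi-square per gene), so none was counted as a duplicate.

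The 6 fresh libraries were fitted alone with edgeR 4.0.16 in R 4.3.3 (filterByExpr by group, TMM scaling, quasi-likelihood test, Benjamini-Hochberg adjustment over all genes tested, threshold 0.05). CPM are counts scaled to 1000000 of the library total times its TMM factor, and SE is the size of the log2 fold change divided by the root of F. The cultured comparison and the difference between settings came from 1 fit of all 29 libraries, in which the 4 substrates were weighted equally. DESeq2 1.42.0, other scalings, filters, a replicate block and leaving out each fresh library were alternatives. On simulated counts for 11480 genes the fresh fit recovered 52.2%, 82.1% and 100% of genes changed by 1.5, 2 and 4-fold, with 7.69% of its calls false. Only 67, 67 and 66 genes were changed, all with a mean of at least 10 CPM, against 31.8% of genes called in the real data. The recovered shares therefore need not hold for the real data or for genes at lower levels.

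The members and the 59 pathway and 15 marker lists were chosen with earlier results of these data known, so a list is described by its counts and median beside those of all genes. Genes named are list members chosen for their role or among those with the smallest p, 36 chosen genes, and the 12 largest folds per direction among called genes with a mean of at least 10 CPM and groups that did not overlap, leaving out genes without an established symbol. Counts of 0 were compared at a floor of 3 counts over the group. Promoters were the 250 bases before the start in a RefSeq table of build GRCm38.p6, matched by symbol, whereas gene coordinates are those of the deposited table. Intervals cover counting error only, and reads were counted without molecular identifiers as far as the labels say.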

Additional observations from a re-analysis of the deposited data

Results flagged for a closer look

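Of the 36 chosen genes, 31 had an age difference that could be compared between fresh and cultured cells. It differed for 24 by the test of the difference in 1 fit of 29 libraries (edgeR's quasi-likelihood test, adjusted p under 0.05). The same test passed for 20.6% of all 13523 genes, and the 36 were chosen with earlier results of these data known. Values are fresh minus cultured differences of the log2 fold change of aged over young cells. Of the matrix genes, the difference was -2.11 ± 0.08 for Col1a1, -1.0 ± 0.08 for Col3a1, -1.95 ± 0.43 for Eln and -2.60 ± 0.47 for Postn, so the age difference was more negative in fresh cells. Postn had 9 counts over the fresh aged libraries. Among the proteases and their inhibitor it was 6.49 ± 0.88 for Mmp13, 1.72 ± 0.06 for Mmp3 and 0.37 ± 0.11 for Timp1, which did not pass without young library 2 or 3 (adjusted p = 0.0812 and 0.0556). Mmp13 averaged 1.46 CPM in young and 0.578 CPM in aged cultured cells.

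For the inflammatory genes the difference was 3.73 ± 0.14 for Cxcl1, 1.58 ± 0.07 for Ccl2, 4.85 ± 0.24 for Ptgs2 and 0.77 ± 0.15 for Il6. Each of these 4 fell with age in culture and rose in fresh cells, but the rise of Il6 in fresh cells did not pass in the fit of 29 libraries (adjusted p = 0.0846), without 4 of the 6 single libraries or with DESeq2. The antioxidant genes had 3.06 ± 0.17 for Hmox1, 1.76 ± 0.14 for Nqo1 and 3.65 ± 0.20 for Slc7a11. The p21 gene Cdkn1a had 1.22 ± 0.12. In the cell cycle the difference was -2.05 ± 0.14 for Plk1, -1.02 ± 0.14 for Mcm5 and -2.17 ± 0.18 for Mki67.

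Of the remaining genes, the immediate early genes Egr1 and Fos had 4.64 ± 0.20 and 2.92 ± 0.30. Fos did not pass the test for age in fresh cells and fell by 2.57 ± 0.13 in culture. Ccn2 had 1.69 ± 0.22, the clock repressor Nr1d1 1.06 ± 0.21, the lineage factor Tcf21 -0.93 ± 0.25 and the efflux pump Abca1 -1.04 ± 0.20. Fresh and cultured libraries also differ in preparation, and the part of that in these differences was not tested.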

How the results depend on the processing

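In fresh cells 1771 genes were higher and 1979 lower with age, and no alternative moved either count by over 1.5 times. Without 1 library in turn the higher genes numbered 1434 to 1962 and the lower ones 1547 to 2039, and DESeq2 gave 1348 and 1409. The 1166 genes over 2-fold became 636 (274 higher, 362 lower) when at least 50 counts in 3 libraries were required, which left 7589 genes to test. Upper quartile scaling gave 2025 higher and 1727 lower, and no scaling moved the median of all genes by over 0.1. Fresh replicate numbers did not pair the libraries: the correlations of deviations at the same number were -0.0202, 0.103 and -0.117, and not every library correlated best with its own number. With the replicate number as a block, 1683 genes were higher and 1888 lower. The block gave 2831 genes in place of 2786 for the difference between settings, and changed no call of a named gene other than Bst2.

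Many of the named genes were picked for a small p or a large fold in these data. Their stability therefore need not hold for all called genes, which went from 3750 to 2757 with DESeq2. Of 197 named genes that passed in fresh cells, 189 held under every alternative that tested them. The other 8 were Col4a4, Fbln5, Fgf2, Gclm, Il6, Keap1 and Nfkb1, which missed the threshold with DESeq2 and without some single libraries, and Pdgfra, which missed it in the fit of 29 libraries (adjusted p = 0.0511). For genes that never passed, the sign turned without a library: Acta2 was at -0.0664 without aged library 3 and ranged up to 0.209, and Per2 was at 0.0737 without young library 2 and 0.266 without aged library 3 and ranged down to -0.535. For the difference between settings, Timp1 did not pass without young library 2 (0.32, adjusted p = 0.0812) or 3 (0.33, adjusted p = 0.0556). Bst2 passed with the replicate block (0.44, adjusted p = 0.0391) and with no filter on low counts (0.44, adjusted p = 0.0181). The sign turned for Ly6a without young library 2 (-0.0573, range up to 0.238), and without young library 1 and aged library 2 for Pdgfra (-0.00483 and -0.0317, range up to 0.108) and Per2 (-0.0947 and -0.440, range up to 0.366). Arg2 could not be compared between settings. Of 118 counts of list members that rose or fell, 44 moved by over 1.5 times under at least 1 alternative, most of them counts of few genes. At this depth the simulated test missed many changes of 1.5-fold, so a gene that did not pass is not shown to be stable.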

Other observations

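Genes of a glucocorticoid response list, which includes the receptor gene Nr3c1, rose in 6 of 13 and fell in 2 (1 without aged library 2), with a median of 0.43. Fkbp5, Tsc22d3, Klf9, Ddit4 and Cebpd did not pass the test, and Klf15 fell. Sgk1, a kinase that glucocorticoids and serum both induce, measured 85.9, 80.0 and 96.5 CPM in young and 227, 282 and 276 CPM in aged fresh cells (1.59 ± 0.10). The receptor itself, Nr3c1, went the other way, from 94.5, 87.3 and 106 CPM to 59.1, 51.9 and 63.6 CPM (-0.71 ± 0.12). Heat shock genes were split, with 7 of 20 higher and 5 lower. The small heat shock protein gene Hspb1 rose from 8.20, 7.03 and 10.6 CPM to 24.1, 41.1 and 26.4 CPM (1.85 ± 0.26).

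Amino acid supply genes of the ATF4 response were even, with 6 of 26 higher and 5 lower. Chac1, which degrades glutathione, rose by 1.90 ± 0.32 and the pseudokinase gene Trib3 by 1.25 ± 0.25. Phgdh, the first enzyme of serine synthesis, measured 114, 106 and 108 CPM in young and 47.0, 40.3 and 55.7 CPM in aged cells (-1.20 ± 0.12). Of 12 Hedgehog and Notch genes 2 rose (1 without young library 2 or aged library 3) and 4 fell. Gas1, a coreceptor of Hedgehog ligands, fell from 25.0, 10.5 and 14.5 CPM to 2.50, 2.49 and 2.37 CPM (-2.74 ± 0.41), on 18 counts over the aged libraries.

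In cholesterol and oxysterol handling 8 of 21 genes rose and 5 fell, and 3 fell without young library 2 or 3 or aged library 2. Ch25h, which makes 25-hydroxycholesterol, rose in fresh cells by 0.92 ± 0.07 and fell in culture by 1.79 ± 0.08, and the difference of 2.74 ± 0.16 passed the test (adjusted p = 2.4e-14). Of the 11 respiratory genes of the mitochondrial genome 5 rose and 0 fell. That count was 2 without aged library 1 and 3 without young library 2 or aged library 2 or 3, and without young library 1 there was 1 that fell. Angiogenic factors were even, with 5 of 18 higher (3 without aged library 2) and 5 lower, and Fgf2 rose both in fresh (0.83 ± 0.24) and in cultured cells (0.99 ± 0.12). In fresh cells it did not pass without aged library 2 or 3 (adjusted p = 0.064 and 0.0636).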
